A study of Danio rerio with 12 samples.

Results

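The genes that encode the proteins of the mitochondrial ribosome were followed in whole zebrafish embryos exposed to a DNA-damaging drug. They were taken as every row of the count table whose symbol begins with mrpl or mrps followed by a digit, a rule that uses no measured value. It found 74 of 15265 genes, 46 named for the large subunit (mrpl) and 28 named for the small subunit (mrps). All 74 matched a gene of the RefSeq annotation, and they lie on 22 chromosomes.

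Mitochondria keep a small genome of their own and translate its messages, which encode core subunits of the respiratory chain and ATP synthase, on dedicated ribosomes. The RNA of these mitoribosomes is made inside the organelle, while their proteins are encoded in the nucleus, translated in the cytosol and imported. Some mitoribosomal proteins have a counterpart in the bacterial ribosome, from which the organelle's ribosome descends, and others were added in the mitochondrial lineage. The positions and roles given here come from structures and genetics of mammalian mitoribosomes unless stated, and are background rather than results.

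Polyadenylated RNA was sequenced on an Ion Proton instrument from wild-type and miR-34a-/- embryos, the latter lacking a microRNA that p53 is known to induce. Embryos of each genotype were exposed from 24 to 28 hours post fertilisation (hpf) either to 0.005% DMSO or to 1 µM camptothecin (CPT), a topoisomerase I poison that causes DNA breaks, and were collected at 28 hpf. The labels give no DMSO content for the CPT groups, whose stock was dissolved in DMSO. Each of the 4 groups held 3 libraries, each from 30 to 50 pooled whole embryos, and only RNA with an integrity number of 8 or more was used. The labels do not say that the numbered libraries came from separate clutches, so every p-value measures the spread between pools, which may be partly technical. In whole embryos, fewer cells of a type and less RNA per cell cannot be told apart.

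Library totals ran from 13.5 to 27.9 M counts, and the 74 genes together took 0.260% to 0.271% of the counts in wild-type DMSO embryos, 0.262% to 0.302% in wild-type CPT, 0.238% to 0.282% in mutant DMSO and 0.296% to 0.331% in mutant CPT. The row for the mutated gene, listed as mir34, gave 0, 1 and 0 counts in the 3 untreated wild-type libraries, 9, 9 and 32 counts in the treated ones, and 0 in all 6 mutant libraries. Markers of muscle, neural tissue, epidermis, notochord, hatching gland and yolk, and heart and vessels were all above 3 counts in at least 1 library, as were 4 of 6 erythroid markers, while the erythroid genes gata1a and alas2 had 0 and at most 2 counts. Some of these moved with the groups. The 6 heart and vessel markers summed to 194 to 200 CPM (counts scaled to a common library size) in wild-type DMSO and 106 to 126 in wild-type CPT, and to 193 to 211 and 116 to 137 in the mutants. The 8 muscle markers summed to 19590 to 23580 CPM in mutant DMSO and 11940 to 14500 in mutant CPT, while the wild-type ranges overlapped at 21070 to 21530 and 16700 to 23230. The 6 hatching gland and yolk markers summed to 20590 to 21020 CPM in wild-type DMSO and 25990 to 28840 in wild-type CPT, and to 16430 to 19580 and 21120 to 22390 in mutants. The sums of 8 neural markers (2130 to 2305 against 1553 to 1700) and 4 notochord markers (394 to 435 against 277 to 293) were lower in mutant CPT than in mutant DMSO. The sum of 5 epidermis markers was higher in wild-type CPT than in DMSO (9609 to 14430 against 8291 to 8775). Not every marker followed its sum. In mutants 1 of 8 muscle, 1 of 8 neural and 1 of 4 notochord markers had a log2 fold change above 0 under CPT. So did 1 of 6 heart and vessel markers in each genotype. The part of these shifts in the results on mitoribosomal genes was not tested.

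Of the 74 genes, 64 passed the filter on low counts and had at least 48 counts in every library. Their mean in wild-type DMSO embryos ran from 3.27 CPM for mrpl1 to 96.7 CPM for mrpl37, with a median of 36.3 CPM. CPM are not divided by transcript length, so these levels do not rank the genes. The other 10 genes never had more than 3 counts in a library, and are described after the genes that could be tested.

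CPT raised many mitoribosomal protein genes and lowered a few in both genotypes. In wild-type embryos 33 of the 64 tested genes rose (51.6%) and 5 fell (7.81%), against 29.1% and 31.8% of all 11866 genes tested, at an adjusted p under 0.05 in edgeR's quasi-likelihood test with Benjamini-Hochberg adjustment over all genes. In miR-34a-/- embryos 31 rose (48.4%) and 6 fell (9.38%), against 28.5% and 31.7% of all genes. The median log2 fold change was 0.33 in wild-type embryos and 0.32 in mutants, while the median over all genes was -0.0025 and -0.0064. The changes were mostly small. Only mrpl43 and mrpl36 rose by 2-fold or more in wild-type embryos, and mrpl43, mrpl17, mrpl52 and mrps14 did so in mutants, where mrps9 was the only one to fall by as much.

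**Figure D1:**
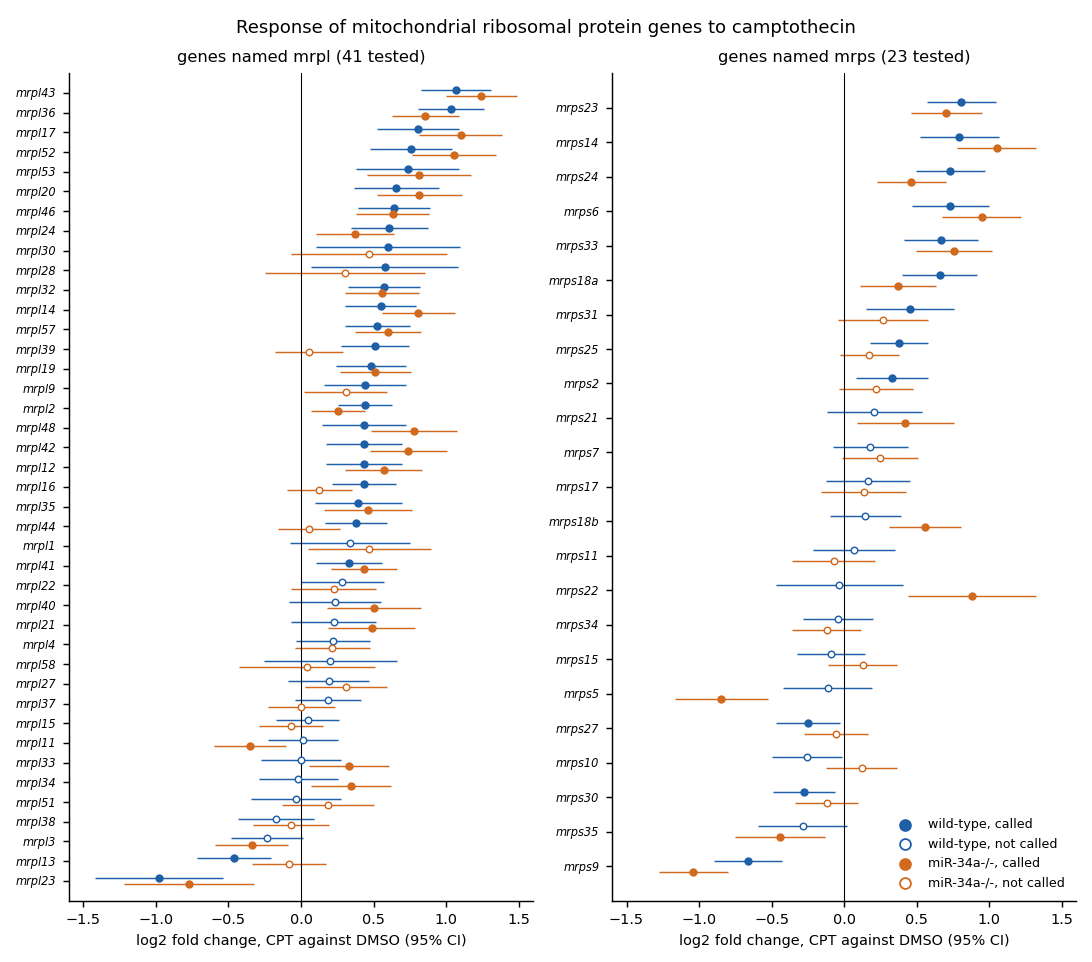
Log2 fold change (x axis) of each of the 64 tested genes under CPT, with 95% confidence intervals as bars, for wild-type (blue) and miR-34a-/- embryos (orange). Filled points passed the adjusted p threshold of 0.05 and open points did not. Genes named mrpl are on the left and genes named mrps on the right, each ordered by the wild-type value. Most points lie right of 0, and mrpl23 and mrps9 lie at the bottom in both genotypes.

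The wild-type counts depend on how the libraries were scaled. When libraries were scaled by their totals rather than by TMM factors (edgeR's trimmed-mean scaling, used elsewhere here), the median of all genes moved to -0.23 on the log2 scale, and 18 mitoribosomal genes rose and 10 fell in wild-type embryos, against 17.1% and 40.4% of all genes. The share of rises among the members called was then 64.3% instead of 86.8%. The median of the 64 genes relative to the median of all genes was 0.339 with totals and 0.337 with TMM factors. Scaling shifts all genes of a comparison nearly alike, so this near-equality follows from the method and is no separate test. TMM factors were 0.835 to 0.962 in the wild-type CPT libraries and 1.01 to 1.09 in the others. With library totals 15 of the 33 wild-type rises lost their call. In mutants, with the same scaling, 27 mitoribosomal genes rose and 6 fell, against 24.7% and 33.4% of all genes.

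**Figure D2:**
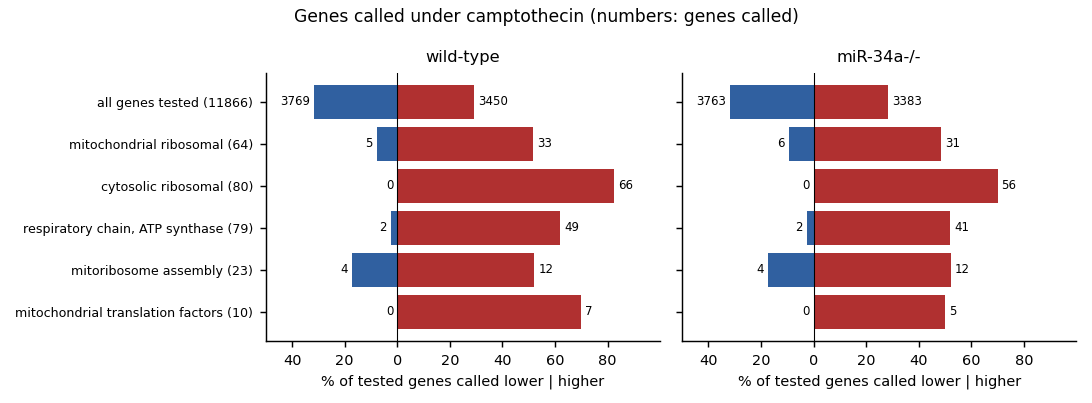
Share of tested genes called higher (red, to the right) and lower (blue, to the left) under CPT, in percent, for all genes tested, the mitoribosomal protein genes and 4 related lists, in wild-type (left) and miR-34a-/- embryos (right). Numbers at the bars count the genes called and numbers in brackets the genes tested. The mitoribosome assembly list also holds genes for other mitochondrial RNAs, such as lrpprc. The mitoribosomal bars reach 51.6% higher in wild-type embryos and 48.4% in mutants, against 29.1% and 28.5% of all genes.

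The largest rise in each genotype was that of a large-subunit gene. This gene, mrpl43, encodes a mitochondria-specific protein. Its level was 22.1, 20.2 and 22.3 CPM in wild-type DMSO embryos and 46.6, 39.1 and 50.2 CPM in wild-type CPT, and 19.7, 21.1 and 21.3 against 47.5, 54.5 and 45.1 CPM in mutants. Every CPT library lay above every DMSO library. The log2 fold change was 1.07 ± 0.12 (SE) in wild-type embryos and 1.24 ± 0.12 in mutants, with edgeR adjusted p of 1.16e-07 and 1.78e-08.

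mrpl36 encodes a very small bacterial-type protein of the large subunit. It was at 29.0, 25.9 and 32.6 CPM in wild-type DMSO and 61.6, 55.1 and 62.8 CPM in wild-type CPT. In mutants it was at 25.6, 26.8 and 29.1 CPM in DMSO and 46.5, 52.6 and 48.6 CPM in CPT. Again no CPT library fell within the DMSO range of either genotype, and the mutant CPT libraries all lay below the wild-type CPT libraries. The rise was 1.03 ± 0.11 (SE) on the log2 scale in wild-type embryos and 0.86 ± 0.11 in mutants, with edgeR adjusted p of 8.35e-08 and 1.41e-06.

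mrpl17, whose bacterial counterpart sits beside the exit of the peptide tunnel, was at 22.4, 21.4 and 28.8 CPM in wild-type DMSO and 44.7, 35.2 and 47.4 CPM in wild-type CPT. The mutant libraries had 20.5, 22.4 and 26.4 CPM in DMSO and 48.1, 52.4 and 48.5 CPM in CPT. The treated and control libraries did not overlap in either genotype. The log2 fold change was 0.81 ± 0.14 (SE) and 1.1 ± 0.14, with edgeR adjusted p of 3.27e-05 and 8.55e-07. The mitochondria-specific mrpl52 rose from 19.3 ± 1.19 to 32.6 ± 3.60 CPM in wild-type embryos and from 15.5 ± 3.23 to 32.4 ± 1.42 CPM in mutants (SD, n = 3), by 0.76 and 1.06 on the log2 scale. mrpl14, a bacterial-type protein at the face where the subunits meet, rose by 0.55 and 0.81.

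Both subunits were represented among the rises. In wild-type embryos 24 of 41 tested mrpl genes rose and 2 fell, with a median log2 fold change of 0.43, while 9 of 23 mrps genes rose and 3 fell, with a median of 0.16. In mutants the counts were 22 and 3 of 41 against 9 and 3 of 23, with medians of 0.37 and 0.22. The rises made up 58.5% of mrpl and 39.1% of mrps genes in wild-type embryos, against 29.1% of all genes, and 53.7% and 39.1% in mutants, against 28.5%. The falls made up 4.88% and 13% in wild-type embryos and 7.32% and 13% in mutants, against 31.8% and 31.7% of all genes. The difference between the subunits was not tested.

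The small-subunit gene with the largest rise in mutants was mrps14, a bacterial-type protein of the subunit's head. It was at 32.4, 31.8 and 33.8 CPM in wild-type DMSO and 52.0, 51.0 and 66.8 CPM in wild-type CPT. The mutant values were 29.2, 27.1 and 34.0 CPM in DMSO and 52.1, 71.6 and 63.9 CPM in CPT. All CPT libraries stood above all DMSO libraries. The rise was 0.79 ± 0.13 (SE) in wild-type embryos and 1.05 ± 0.13 in mutants on the log2 scale, with edgeR adjusted p of 2.52e-05 and 9.11e-07.

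mrps6, a bacterial-type protein of the small subunit's platform, rose from 65, 72.2 and 67.0 CPM to 114, 117 and 109 CPM in wild-type embryos. In mutants it rose from 47.1, 70.4 and 67.9 CPM to 100, 130 and 128 CPM. The lowest treated library was above the highest control, and mutant DMSO library 1 was the lowest of all 12. The log2 fold changes were 0.73 ± 0.13 (SE) and 0.95 ± 0.13, with edgeR adjusted p of 5.81e-05 and 3.11e-06. The mitochondria-specific mrps23 was at 42.4, 38.0 and 37.1 CPM in wild-type DMSO and 64.8, 68.6 and 72.1 CPM in wild-type CPT, and rose by 0.81 on the log2 scale there and by 0.70 in mutants. mrps24, named for the small subunit and related to the bacterial protein S3 of the mRNA entry channel, rose by 0.73 and 0.46, and the mitochondria-specific mrps33 by 0.67 and 0.76.

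**Figure D3:**
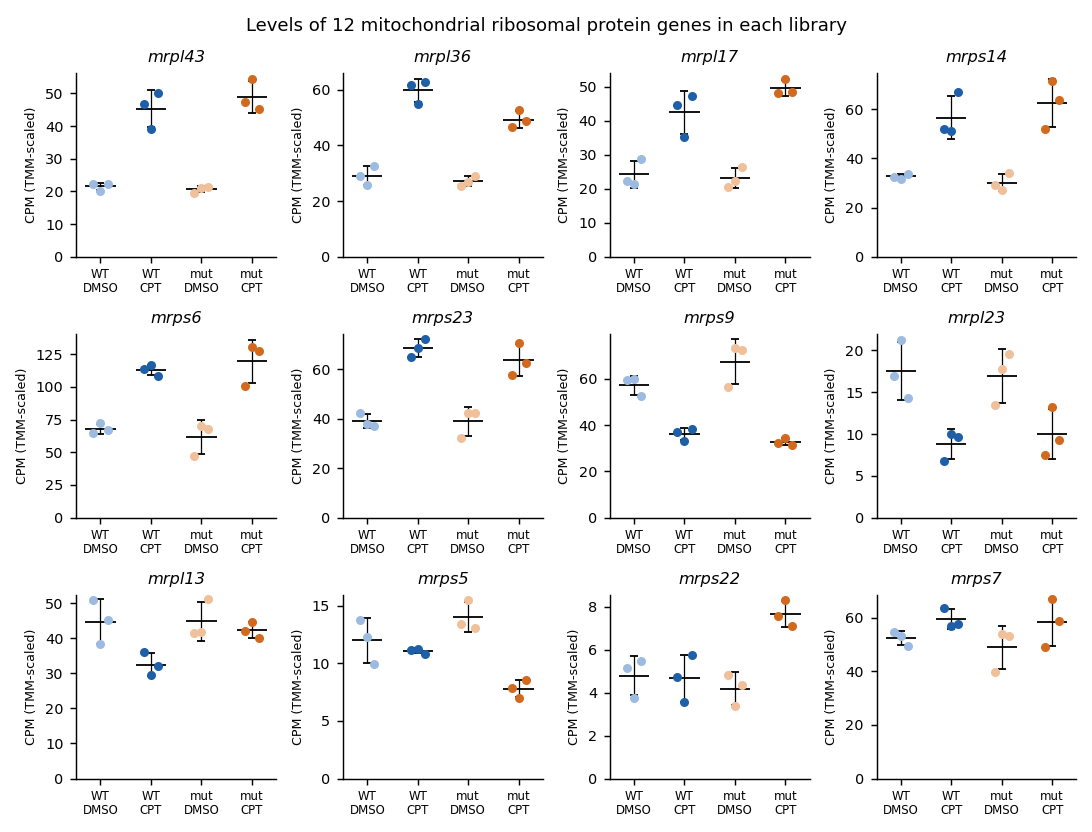
Level of 12 mitoribosomal protein genes in TMM-scaled CPM (y axis, from 0) in each of the 12 libraries, by group (WT, wild-type; mut, miR-34a-/-). Points are libraries, horizontal bars group means and error bars the SD of 3 libraries. mrpl43, mrpl36, mrpl17, mrps14, mrps6 and mrps23 are higher in CPT in both genotypes, and mrps9 and mrpl23 are lower in both. The CPT changes of mrpl13, mrps5 and mrps22 were called in 1 genotype each, which does not test a difference between genotypes.

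Genes named mrps9 and mrpl23 fell in both genotypes. mrps9 encodes a bacterial-type protein whose tail reaches towards the tRNA in the decoding region of the small subunit. It was at 59.3, 59.8 and 52.5 CPM in wild-type DMSO and 36.8, 33.1 and 38.2 CPM in wild-type CPT, and at 56.3, 73.4 and 72.4 CPM in mutant DMSO and 32.4, 34.5 and 31.6 CPM in mutant CPT. No treated library reached the lowest control library. It fell by 0.66 on the log2 scale (SE 0.11) in wild-type embryos and by 1.04 (SE 0.11) in mutants, with edgeR adjusted p of 3.76e-05 and 1.57e-07.

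mrpl23 encodes a bacterial-type protein at the rim of the peptide tunnel exit, where mitoribosomes are held at the inner membrane. It was at 16.9, 21.2 and 14.3 CPM in wild-type DMSO and 6.79, 9.98 and 9.67 CPM in wild-type CPT. The mutants had 13.4, 17.8 and 19.6 CPM in DMSO and 7.45, 13.3 and 9.33 CPM in CPT. The wild-type groups stood clear of each other, while the highest mutant CPT library came close to the lowest mutant DMSO library. The log2 fold change was -0.98 ± 0.21 (SE) in wild-type embryos and -0.77 ± 0.21 in mutants, with edgeR adjusted p of 0.000529 and 0.00424.

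The other falls were called in a single genotype. mrpl13, a bacterial-type protein of the large subunit, was at 50.9, 38.3 and 45.2 CPM in wild-type DMSO and 36.0, 29.5 and 32.0 CPM in wild-type CPT, a log2 fold change of -0.46 ± 0.12 (SE) with an edgeR adjusted p of 0.00264. The wild-type groups did not overlap. In mutants it had 41.4, 41.8 and 51.3 CPM in DMSO and 42.1, 44.7 and 40.1 CPM in CPT, and these ranges overlapped. Its log2 fold change there was -0.08, with a 95% interval of -0.34 to 0.17.

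mrps5, a bacterial-type protein at the mRNA entry side of the small subunit, showed the reverse layout. It was at 13.4, 15.5 and 13.1 CPM in mutant DMSO and 7.86, 7.01 and 8.52 CPM in mutant CPT, and fell by 0.85 on the log2 scale (SE 0.15) with an edgeR adjusted p of 7.86e-05. The wild-type libraries had 13.7, 12.3 and 9.94 CPM in DMSO and 11.2, 11.2 and 10.8 CPM in CPT. The wild-type ranges overlapped, and the log2 fold change was -0.11 with an interval of -0.42 to 0.19.

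The remaining falls were smaller. In wild-type embryos mrps30 changed by -0.28 and mrps27, a protein with pentatricopeptide repeats, by -0.25, with edgeR adjusted p of 0.0248 and 0.0450. The mrps27 call was lost under 13 of 21 alternatives, among them leaving out any of the 3 wild-type CPT libraries (-0.19 to -0.24) or wild-type DMSO library 1 or 2 (-0.25 and -0.19). The mrps30 call was lost under 7, with -0.26 and -0.24 without wild-type DMSO library 1 or 3, -0.22 and -0.18 without wild-type CPT library 1 or 2, and -0.24 without mutant CPT library 3. In mutants mrps35 changed by -0.44, mrpl11 by -0.35 and mrpl3 by -0.34, with edgeR adjusted p of 0.0155, 0.0155 and 0.0196.

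mrps35 is a mitochondria-specific protein of the small subunit, mrpl11 stands at the base of the stalk that receives translation factors, and mrpl3 reaches towards the peptidyl transferase centre. These 3 mutant calls were also lost without single libraries. The mrps35 value was -0.28 without mutant DMSO library 2, -0.38 without mutant DMSO library 3 and -0.36 without mutant CPT library 1. The mrpl11 value was -0.24 without mutant DMSO library 2 and -0.29 without mutant CPT library 3, and mrpl3 lay between -0.27 and -0.32 without mutant DMSO library 2 or 3 or mutant CPT library 1 or 3. mrpl23 and mrps9 kept their call under all 21 alternatives in both genotypes, as did 15 of the rising genes.

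By origin, 14 of 26 tested large-subunit genes with a bacterial counterpart rose in wild-type embryos and 2 fell, and 11 of 17 mitochondria-specific ones rose and 1 fell. In the small subunit the counts were 4 and 1 of 12 for genes with a bacterial counterpart and 4 and 1 of 9 for mitochondria-specific genes. In mutants these lists had 13 and 3, 10 and 0, 4 and 2, and 4 and 1 genes called. As shares, the wild-type rises were 53.8% and 64.7% in the large-subunit lists and 33.3% and 44.4% in the small-subunit lists, against 29.1% of all genes, and the mutant rises were 50.0%, 58.8%, 33.3% and 44.4%, against 28.5%. In rises, the small-subunit genes with a bacterial counterpart were thus near the share of all genes in both genotypes. The falls of the lists, in the same order, were 7.69%, 5.88%, 8.33% and 11.1% in wild-type embryos, against 31.8% of all genes. In mutants they were 11.5%, 0%, 16.7% and 11.1%, against 31.7%. The mitochondria-specific large-subunit list includes mrps30 and mrps18a, whose proteins are part of the large subunit in mammals despite their names. The lists count mrps18a and mrps18b as mitochondria-specific although both are related to the bacterial protein S18. Only mrps18c is counted there as having a bacterial counterpart. mrps18a rose in both genotypes and mrps18b in mutants, so the shares by origin depend on this choice.

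By position, around the peptide exit, 4 of 6 tested genes rose in wild-type embryos (mrpl17, mrpl24, mrpl39 and mrpl44) while mrpl23 fell, and in mutants mrpl17 and mrpl24 rose and mrpl23 fell. In the central protuberance, where mammalian mitoribosomes carry a structural tRNA, 3 of 7 rose in wild-type embryos and 4 in mutants, and none fell. Of the 6 tested genes of the decoding region and mRNA channel, mrps24 and mrps2 rose and mrps9 fell in wild-type embryos, and mrps24 rose while mrps5 and mrps9 fell in mutants. In this order, the rises made up 66.7%, 42.9% and 33.3% in wild-type embryos, against 29.1% of all genes. In mutants they made up 33.3%, 57.1% and 16.7%, against 28.5%. The falls made up 16.7%, 0% and 16.7% in wild-type embryos, against 31.8% of all genes. In mutants they made up 16.7%, 0% and 33.3%, against 31.7%. With so few genes per list, no pattern by position is read from these shares. The mrps2 call was lost with library totals (0.09), without wild-type DMSO library 1 or 2 (0.30 each) and without wild-type CPT library 1 (0.23), and the mutant mrpl24 call without mutant DMSO library 1 (0.22) or mutant CPT library 2 (0.32). mrpl12 and mrpl53, at the factor-binding stalk, rose in both genotypes, while the stalk-base gene mrpl11 was at 0.01 in wild-type embryos and fell in mutants.

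mrpl12 encodes the stalk protein that contacts translation factors, and in human cells it is also reported to bind the mitochondrial RNA polymerase. It was at 79.6, 64.8 and 72.6 CPM in wild-type DMSO and 105, 93.8 and 94.8 CPM in wild-type CPT, so the groups were apart. In mutants it was at 57.2, 75.1 and 85.0 CPM in DMSO and 98.9, 122 and 102 CPM in CPT. The log2 fold changes were 0.43 ± 0.13 (SE) and 0.57 ± 0.13, with edgeR adjusted p of 0.00546 and 0.000638. The wild-type call was lost with library totals, at 0.20.

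mrpl41 and mrps30 have been linked to apoptosis, mrpl41 through binding of Bcl-2 in mammalian cells and mrps30 as a death-promoting protein in chicken cells. They moved in opposite directions in wild-type embryos. mrpl41 rose from 43.7 ± 3.45 to 54.9 ± 7.05 CPM in wild-type embryos and from 43.9 ± 2.99 to 59.4 ± 2.33 CPM in mutants (SD, n = 3), by 0.33 and 0.43 on the log2 scale. Its wild-type call was lost with library totals (0.11) and without wild-type DMSO library 1 (0.27). mrps30 went from 54.5 ± 4.09 to 45.0 ± 4.35 CPM in wild-type embryos, and its log2 fold change in mutants was -0.12 with an interval of -0.34 to 0.10. dap3, another mitoribosomal gene linked to cell death, was at 0.12 in wild-type embryos, where it was not called, and fell by 0.26 in mutants.

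Vertebrates carry 3 genes related to the bacterial protein S18, and the tested copies differed in their calls. mrps18a rose in both genotypes, by 0.66 in wild-type embryos and 0.37 in mutants. The mutant call was lost without mutant DMSO library 1 (0.25) or mutant CPT library 2 (0.33). mrps18b was at 36.4, 32.6 and 38.8 CPM in wild-type DMSO and 39.9, 36.3 and 43.0 CPM in wild-type CPT, which overlapped, and at 29.1, 30.6 and 34.3 CPM in mutant DMSO and 43.3, 53.4 and 41.5 CPM in mutant CPT, which did not. Its log2 fold change was 0.15 (interval -0.10 to 0.39) in wild-type embryos and 0.56 ± 0.12 (SE) in mutants, with an edgeR adjusted p of 0.000473 in the latter. mrps18c was among the genes with at most 3 counts.

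The genes mrps7 and mrpl44 differed in their calls. mrps7, a bacterial-type protein of the small subunit's head, had log2 fold changes of 0.18 (interval -0.08 to 0.44) and 0.25 (interval -0.01 to 0.51) and was called in neither genotype. mrpl44, a protein with a ribonuclease III fold near the peptide exit, was at 52.3, 55.1 and 51.4 CPM in wild-type DMSO and 68.3, 64.5 and 73.5 CPM in wild-type CPT. Those libraries did not overlap, and the rise of 0.38 ± 0.10 (SE) had an edgeR adjusted p of 0.00328, but was 0.15 and not called with library totals. In mutants it was at 0.06, with an interval of -0.16 to 0.27. In all, 15 of the 64 genes were called in neither genotype, among them mrpl15, mrpl37, mrpl38, mrps11 and mrps34, which were chosen here after their values were seen. The share called in neither was not computed over all genes. By genotype, 26 of the 64 were not called in wild-type embryos and 27 in mutants, against 4647 and 4720 of all 11866 genes.

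The responses of the genotypes, which share no library, were set side by side gene by gene. There were 24 genes that rose in both, which is 72.7% of the wild-type rises and 77.4% of the mutant rises, 2 fell in both and none was called in opposite directions. The sign of the change was shared by 56 of the 64 genes, and across genes the Pearson correlation was 0.816 and the Spearman correlation 0.785. These are descriptions over genes, which are not independent replicates. Shared calls, signs and correlations were not computed over all genes, so they are not read as particular to this family. Across the 64 genes the SD of the log2 fold change was 0.40 in wild-type embryos and 0.46 in mutants, and that of their difference 0.27. Over all genes these were 1.05, 1.07 and 0.45. The 9 genes called higher in wild-type embryos alone were mrpl9, mrpl16, mrpl28, mrpl30, mrpl39, mrpl44, mrps2, mrps25 and mrps31, and the 7 called higher in mutants alone were mrpl21, mrpl33, mrpl34, mrpl40, mrps18b, mrps21 and mrps22. Of these calls, that of mrpl28 was lost under 8 of 21 alternatives, that of mrpl30 under 6, and those of mrpl33, mrpl34 and mrps21 under 5 each. With library totals every wild-type-only rise except that of mrpl39 lost its call, as did the mutant-only rises of mrpl33, mrpl34 and mrps21. A call in a single genotype does not test a difference between the genotypes, which the interaction below does.

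**Figure D4:**
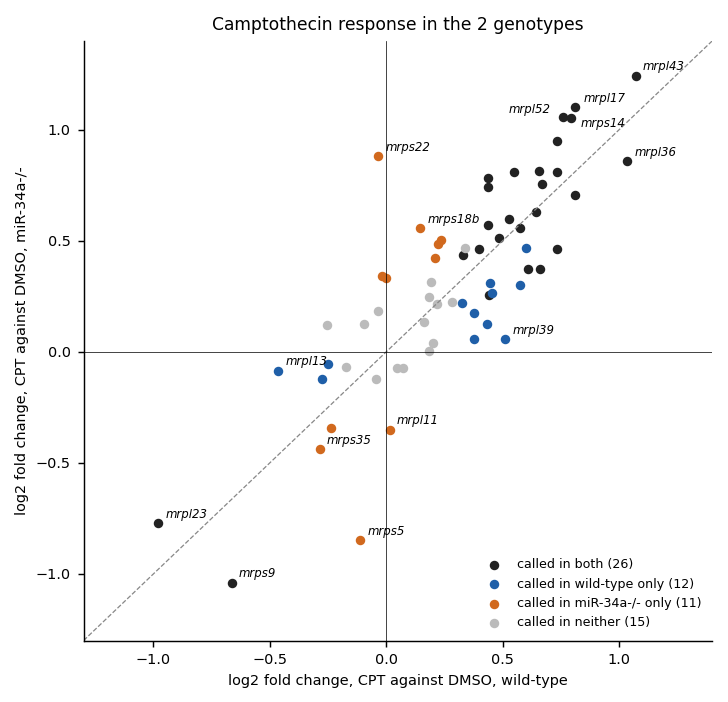
Log2 fold change under CPT in wild-type embryos (x axis) against miR-34a-/- embryos (y axis) for the 64 tested genes. Points are genes, coloured by whether the change was called in both genotypes (26 genes), in 1 of them or in neither (15 genes), and the dashed line marks equal change. Most genes lie near the line, and mrps22 and mrps5 lie farthest from it.

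Between genotypes, edgeR called no mitoribosomal gene in either treatment, and other tools or scalings called a few in CPT. In DMSO, 0 of 64 genes were called in edgeR in either direction, against 0.194% of all genes higher and 0.405% lower in mutants. DESeq2 also called 0, against 0.657% and 0.885% of all genes. With shares this low, 0 of 64 is not read as particular to this family. Before adjustment, p was under 0.05 in edgeR for 3 genes, against 1397 of all 11866 genes. In DESeq2 it was so for 2 genes, and the count over all genes is not given here. The smallest edgeR adjusted p was 0.296. The 3 genes in edgeR were mrpl14 at -0.31, mrpl52 at -0.31 and mrps9 at 0.24 on the log2 scale. The median difference of the 64 genes was -0.05, and it was 0.03 without mutant DMSO library 1 and -0.11 without mutant DMSO library 3. The 95% interval reached 0.261 on either side for the median gene.

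In CPT, 0 of 64 genes were called in edgeR between the genotypes, against 1.13% of all genes higher and 2.16% lower in mutants. Before adjustment, p was under 0.05 for 12 genes, against 2254 of all 11866 genes, and the median difference was -0.03. That median was 0.0256 without mutant CPT library 1, 0.0054 without mutant CPT library 3 and 0.16 with library totals. With library totals 5 genes were called higher, against 9.17% of all genes. DESeq2 called 1 gene higher and 3 lower, against 2.16% and 3.55% of all genes. These were mrps22 higher, and mrps25, mrpl11 and mrps5 lower, at 0.71, -0.32, -0.39 and -0.51 in edgeR with adjusted p of 0.0638, 0.0683, 0.0727 and 0.0739.

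mrps22, a mitochondria-specific small-subunit protein in which mutations cause mitochondrial disease in humans, was the gene with the smallest of these p-values and was named after its values were seen. It was at 5.16, 3.75 and 5.48 CPM in wild-type DMSO and 4.72, 3.55 and 5.73 CPM in wild-type CPT, and at 4.84, 3.37 and 4.36 CPM in mutant DMSO and 7.59, 8.30 and 7.12 CPM in mutant CPT. The 3 mutant CPT libraries stood above the other 9, which were intermixed. The mutant rise was 0.88 ± 0.21 (SE) with an edgeR adjusted p of 0.00129, and the wild-type change was -0.03 with an interval of -0.47 to 0.40. The gene had 77 to 169 counts per library.

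The interaction of genotype and CPT tested the difference between the responses. In edgeR it called 0 of 64 genes, against 0.0253% of all genes higher and 0.135% lower. Before adjustment, p was under 0.05 for 9 genes, against 1797 of all 11866 genes. The smallest adjusted p were 0.111 for mrps5 and 0.150 for mrps22. The difference of log2 fold changes, mutant minus wild-type, was -0.73 for mrps5 with a 95% interval of -1.18 to -0.29, and 0.92 for mrps22 with an interval of 0.29 to 1.54. DESeq2 called mrps5 alone, with an adjusted p of 0.0498, against 0.472% of all genes higher and 1.66% lower. Without wild-type CPT library 3, edgeR called mrps22, with an adjusted p of 0.0424, against 1.43% of all genes higher and 2.78% lower. Other alternatives went the other way. The edgeR adjusted p of mrps22 was 0.314 with libraries thinned to equal depth and 0.376 without mutant DMSO library 2. That of mrps5 was 0.312 without mutant DMSO library 2.

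Single libraries moved many of these genes together. In mutant DMSO library 1 only 4 of 64 genes lay above their group mean, with a median of -0.16 on the log2 scale, and in mutant CPT library 2 it was 55 of 64, with a median of 0.13. Over all genes it was 6385 and 5930 of 11866. Other families moved too, with 7 and 64 of 80 cytosolic ribosomal and 16 and 58 of 79 respiratory chain and ATP synthase genes above the mean. Without mutant DMSO library 1, 24 mitoribosomal genes rose and 7 fell in mutants, with a median of 0.25, against 25.9% and 29.3% of all genes. Without mutant CPT library 2, 23 rose and 6 fell, with a median of 0.26, against 25.2% and 28.9% of all genes. Relative to the wild-type DMSO mean, the median gene was at 0.37, 0.25 and 0.35 in the wild-type CPT libraries and at 0.18, 0.43 and 0.21 in the mutant CPT libraries.

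The same was counted for genes of the cytosolic ribosome, which makes mitoribosomal proteins, and of the respiratory chain and ATP synthase, whose complexes hold products of the mitoribosome. Of 80 tested cytosolic ribosomal protein genes 66 rose in wild-type embryos and 0 fell, with a median of 0.64, and of 79 respiratory chain and ATP synthase genes 49 rose and 2 fell, with a median of 0.39. In mutants the counts were 56 and 0, and 41 and 2, with medians of 0.61 and 0.33, so 24 cytosolic and 36 respiratory chain genes were not called there. The rises made up 82.5% and 62% of these families in wild-type embryos, against 29.1% of all genes. In mutants they made up 70% and 51.9%, against 28.5%. The falls made up 0% and 2.53% in each genotype, against 31.8% and 31.7% of all genes. The mitoribosomal genes had medians of 0.33 and 0.32 and 5 and 6 falls. Whether the families differ was not tested.

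In CPT, 13 cytosolic ribosomal protein genes (16.2%) and 10 respiratory chain genes (12.7%) were called lower in mutants than in wild-type embryos. None was called higher. Of all genes, 2.16% were lower and 1.13% higher. The medians were -0.41 and -0.17, and the mitoribosomal genes had 0 called and a median of -0.03. These values use TMM factors. With library totals the median of all genes in this comparison moved from 0.0146 to 0.20, and 0.902% were called lower and 9.17% higher. Values of these families under library totals are not given here. In DMSO none of either family was called, and the medians were -0.36 and -0.15. There 33 of 80 and 21 of 79 genes had an unadjusted edgeR p under 0.05, against 1397 of all 11866 genes. In the 3 wild-type CPT libraries the median cytosolic gene stood at 0.91, 0.67 and 0.40 above the wild-type DMSO mean, a wider spread than the 0.37, 0.25 and 0.35 of the mitoribosomal genes.

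**Figure D5:**
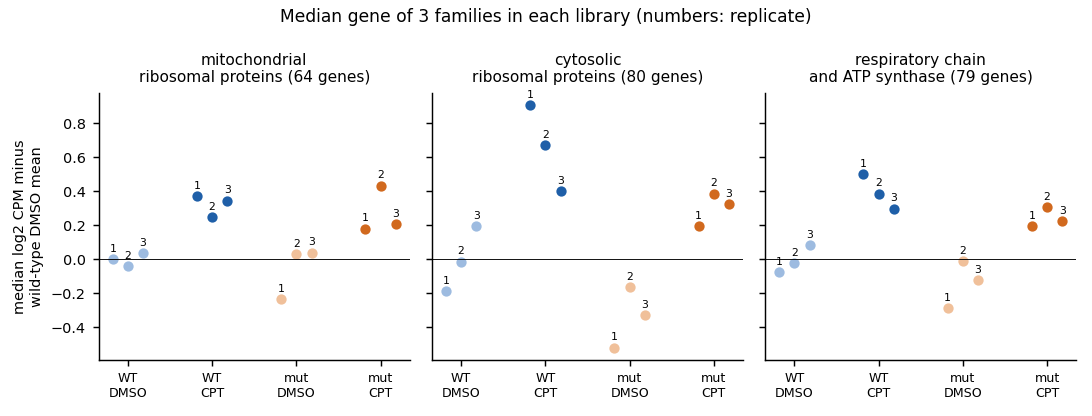
Median over genes of log2 CPM minus the wild-type DMSO mean (y axis) in each of the 12 libraries, for 64 mitoribosomal, 80 cytosolic ribosomal and 79 respiratory chain and ATP synthase genes. Points are libraries with their replicate number, grouped by genotype (WT, wild-type; mut, miR-34a-/-) and treatment. All CPT libraries lie above 0 in the 3 panels, and mutant DMSO library 1 is the lowest of its group in each.

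Of the 4 mitoribosomal proteins that carry other names, aurkaip1 rose in wild-type embryos (0.40) and ptcd3 fell in both genotypes, by 0.28 and 0.39. chchd1 was called in neither.

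Several genes for building the mitoribosome or for other mitochondrial RNAs changed by over 2-fold. The list for assembly and ribosomal RNA modification had 23 tested genes. It also held lrpprc, slirp and nsun3, described below, which are tied to other mitochondrial RNAs. In each genotype 12 of the 23 rose (52.2%) and 4 fell (17.4%). Over all genes 29.1% rose and 31.8% fell in wild-type embryos, and 28.5% and 31.7% in mutants. lrpprc, which stabilises mitochondrial messenger RNAs, was at 74.2, 82.1 and 81.7 CPM in wild-type DMSO and 26.3, 23.2 and 14.6 CPM in wild-type CPT. Its treated libraries lay far below the controls in both genotypes, with log2 fold changes of -1.90 ± 0.15 (SE) and -1.89 ± 0.15 and edgeR adjusted p of 3.1e-09 and 4.3e-09.

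The ribosomal RNA methyltransferase genes mettl15 and tfb1m were at -1.69 and -1.33 in wild-type embryos and -1.62 and -1.29 in mutants, and nsun3, a methyltransferase of a mitochondrial tRNA, at -0.82 and -0.55. The rises included the pseudouridine synthase gene trub2 (1.30 and 1.26), ngrn (1.08 and 1.28) and noa1 (0.98 and 0.69), both needed for mitoribosome formation, and mrm3b, related to a methyltransferase of large-subunit RNA (1.02 and 0.99). slirp, whose protein partners with that of lrpprc, rose by 0.43 and 0.76.

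Over all genes 29.1% rose and 31.8% fell in wild-type embryos, and 28.5% and 31.7% in mutants. Among 10 tested translation factors 7 rose in wild-type embryos (70%), 5 rose in mutants (50%) and none fell. They included the release factor gene mtrf1 (1.18 and 0.89), mtfmt, which formylates the initiator tRNA (0.84 and 0.99), the elongation factor gene tufm (0.29 and 0.33) and tsfm, which recharges the tufm product (0.97 and 0.65). Of 6 tested genes for transcription and upkeep of mitochondrial DNA, 5 rose in wild-type embryos (83.3%) and 6 in mutants (100%). The helicase gene twnk rose from 26.1, 22.6 and 21.4 CPM to 68.3, 82.1 and 83.8 CPM in wild-type embryos, by 1.74 ± 0.12 (SE) on the log2 scale, and by 1.47 ± 0.12 in mutants.

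Of 9 tested regulators known to act on nuclear genes for mitochondrial proteins, 4 rose in both genotypes and 2 fell in mutants. The rises made up 44.4% in each genotype, against 29.1% and 28.5% of all genes. The falls made up 0% in wild-type embryos and 22.2% in mutants, against 31.8% and 31.7%. gabpb1 rose by 1.42 and 0.97, mycb by 1.26 and 1.20, nrf1 by 0.61 and 0.58 and yy1a by 0.50 and 0.43. yy1b and gabpa fell in mutants, by 0.36 and 0.45, and were at -0.12 and 0.17, not called, in wild-type embryos.

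The 10 genes that could not be tested were mrpl10, mrpl18, mrpl45, mrpl47, mrpl54, mrps16, mrps18c, mrps26, mrps28 and mrps36, with 1 to 8 counts each over all 12 libraries. Their rows are not read as absence of the transcript. In the same data 2226 genes never exceeded 3 counts, among them 13 of 95 respiratory chain and ATP synthase genes, and the cytosolic ribosomal protein gene rpl32 had at most 7 counts in a library. The cause was not tested. A limit of 3 counts corresponds to 0.223 CPM in the smallest library and 0.107 CPM in the largest. The gene mrps36 is listed in RefSeq under another symbol, and in mammals its product belongs to a metabolic enzyme complex rather than to the mitoribosome. The genes mrps12, mrpl49, mrpl50 and mrpl55 were not analysed here.

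Some of the values may mix genes. In RefSeq 23 of the 74 genes, and 19 of the 64 tested, overlap another annotated gene, and the strand setting of the counting is not given in the sources used here. The overlaps include mrpl11, mrpl24, mrpl53, mrps18b, mrps22, mrps23 and mrps35, whose values above are uncertain for that reason. Among the 45 tested genes with no such overlap, 27 rose and 5 fell in wild-type embryos and 22 rose and 4 fell in mutants. Of all genes tested, with or without an overlap, 29.1% rose and 31.8% fell in wild-type embryos, and 28.5% and 31.7% in mutants.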

How the data were processed

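The deposited data are integer counts of reads for each gene, listed by symbol, before any normalisation, in 1 column for each of the 12 libraries. The submitters' processing notes name the genome build danRer11 and, as tools, HTSeq 0.9.1, Picard 2.5.0, Bowtie2, STAR 2.7 and Trim Galore 0.4.4. Which annotation was used, whether reads were counted by strand and how reads that align to several places were handled is not given in the sources used here. These choices could change the values of overlapping or duplicated genes.

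Genes were filtered with filterByExpr (11866 kept), scaled with TMM factors and fitted with edgeR 4.0.16 in R 4.3.3, as a robust quasi-likelihood model of 4 group means over all 12 libraries with 8 residual degrees of freedom. P-values were adjusted by Benjamini-Hochberg over all genes tested, a gene was called at an adjusted p under 0.05, and intervals are 95% intervals. Adjusted p-values throughout are from this test unless DESeq2 is named. Levels are TMM-scaled CPM. The model was tested on simulated counts with known changes. A first condition, on how many simulated 2-fold changes were recovered, was narrowly missed. It was replaced by conditions on the mean estimated change and on false hits, and the model was not changed. Alternatives were DESeq2 1.42.0, limma-voom (limma 3.58.1), other scalings, filters and subsets of libraries, libraries thinned to 13455710 counts and a replicate block.

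The 74 genes were chosen by symbol, and they and the gene lists were chosen with earlier results of these data known. Named genes are, for each comparison, the 10 smallest p and the 5 largest rises and falls among those called, those at very low counts, a fixed set, and up to 4 called genes per list. Of these the text gives a part, and genes chosen after their values were seen are marked. The steps of that rule that need coding lengths, promoters or proteins were not applied, since no such tables were used here. RefSeq names and gene order come from assembly GRCz12tu, another build, so no coordinates are given. Replicates of a group differed by more than sampling noise, with a chi-square per degree of freedom of 7.64 to 65.6.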

Additional observations from a re-analysis of the deposited data

How the results depend on the processing

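Depth and replicate number limit what could be seen: with 3 pools a group, the 95% interval of the median gene reached 0.26 on either side of its log2 fold change in the comparisons of a pair of groups, and 0.368 for the interaction. Under library totals 18 genes rose and 10 fell in wild-type embryos, with a median of 0.11, against 17.1% and 40.4% of all genes. In CPT 5 were then called higher in mutants than in wild-type embryos, against 9.17% of all genes, with a median of 0.16. The median of the interaction was 0.24 under library totals, and the median of all genes moved too. With no filter on low counts 3 of 74 genes fell in wild-type embryos, against 3598 of all 14390 genes. The main fit had 5 of 64, against 3769 of all 11866 genes. The cause of the lower count was not tested. In CPT between genotypes DESeq2 called 1 gene higher and 3 lower, against 2.16% and 3.55% of all genes. Libraries thinned to equal depth gave 1 lower there, against 2.22% of all genes. In the interaction DESeq2 called 1 lower, against 1.66% of all genes. Leaving out each library in turn gave 3 to 6 falls in wild-type embryos and 3 to 7 in mutants, 0 to 2 higher and 0 to 1 lower genes between genotypes in CPT, 0 to 1 higher genes in the interaction and an interaction median of -0.0645 to 0.0943. Over all genes these fits called 28.0% to 31.9% lower in wild-type embryos and 27.9% to 31.2% in mutants. Between genotypes in CPT they called 0.158% to 3.5% higher and 0.384% to 5.22% lower, and in the interaction up to 1.43% higher. The median between genotypes changed sign when single libraries were left out, running from -0.1118 to 0.0317 in DMSO and from -0.0911 to 0.0256 in CPT. The other counts stayed within 1.5 times of the reported count, and the other medians moved by less than the spread between libraries.

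A fit with the replicate number as a block (replicate block) gave 33 rises and 5 falls in wild-type embryos, against 29.2% and 31.9% of all genes. In mutants it gave 32 and 6, against 28.7% and 31.8%. Between genotypes in CPT it gave 1 gene higher, mrps22, against 1.51% of all genes higher and 2.49% lower. Same-numbered libraries of different groups correlated at -0.158 to 0.232 in their deviations, and 3 of 18 pairs were over 0.1. The highest correlation was with a same-numbered library for 4 of 12 libraries, and for 0 of 12 was this so in every other group. The labels tie no number to a clutch or day and not every pair was over 0.1, so the numbers were not taken to pair the libraries. No gene's change reversed its direction under the 21 alternatives where it was called.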
